A study of Mus musculus with 41 samples.

Results

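The distal convoluted tubule and the connecting tubule that follows it are short stretches of the nephron where the last adjustments of urinary sodium, calcium and magnesium are made. The expression of 10 genes of these segments, Calb1, Klk1, S100g, Trpv5, Slc8a1, Slc12a3, Pvalb, Trpm6, Atp2b1 and Wnk1, was followed through kidney injury and after removal of the opposite kidney. They are 10 of the 48795 genes in the deposited table and were listed by name, with earlier results of these data known, for calcium and sodium handling and because Calb1 and Klk1 were high again after nephrectomy. For that reason no p is given for any of the 10 genes in the comparison of nephrectomy with no nephrectomy on day 7, nor for Calb1 and Klk1 in any comparison with the uninjured or the nephrectomised group. Those differences are descriptions.

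Kidneys were injured by clamping the blood supply of one side and releasing it, called unilateral ischemia-reperfusion injury (UIRI). In the first cohort, male mice of 8 to 10 weeks had the blood supply of the left kidney clamped for 21 min while body temperature was held at 34 °C. In UIRI+Nx d7 the uninjured kidney was removed (nephrectomy, Nx) on day 3 and the injured one taken on day 7, UIRI d7 was harvested on day 7 after a sham nephrectomy by the design text, UIRI d3 was harvested on day 3, and Control had no ischemia, with 6 mice in each group. The second cohort held UIRI+Nx d7 (n = 4), UIRI d7 (n = 6) and UIRI d3 (n = 6) and no Control, and its titles carry WT. Sex, age, ischemia time, day of nephrectomy and a sham operation are not given for the second cohort, and neither strain nor, for the first cohort, genotype is given, so reading the group names as the same in both is an inference. Nothing in the labels says that the libraries of the second cohort came from separate mice, and there the p-values measure the spread between these libraries.

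A piece of each kidney's pole gave the RNA, which was sequenced from the 3′ end, so that a count stands for about 1 transcript whatever its length, and levels are given in CPM (counts scaled to library size with TMM factors). Total counts ran from 5090418 to 33362940 a library, and 9 of the 10 genes were counted in every library with a group. Parvalbumin was the exception, with 0 counts in 15 of 40 libraries. A gene was called when the quasi-likelihood F test of edgeR gave an adjusted p under 0.05 over all genes tested in its cohort, 15701 in the first and 15543 in the second, and "rose" and "fell" are used only of called genes. In a whole-tissue sample, fewer cells of a type and less RNA in each cell cannot be told apart. A further column, titled UNDETERMINED, a name usually given to reads assigned to no sample, has no group and was left out.

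In these segments calcium enters from the urine through the channel Trpv5, is carried across the cell by the calbindins Calb1 (calbindin D28k) and S100g (calbindin D9k), and leaves into the blood through the exchanger Slc8a1 (NCX1) and the pump Atp2b1 (PMCA1). Sodium chloride enters through the thiazide-sensitive cotransporter Slc12a3 (NCC), which kinases of the WNK family control, Wnk1 among them. Trpm6 is the channel for magnesium entry, Pvalb (parvalbumin) is a calcium buffer of the early distal convoluted tubule, and Klk1 is the tissue kallikrein that connecting tubule cells release into the urine. Slc8a1, Atp2b1 and Wnk1 are also made in other kidney cells, so their counts in whole tissue are not those of these segments alone. Wnk1 has a long and a kidney-specific form that share the 3′ end and cannot be told apart here.

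Calb1 and Klk1 were lowest in the injured kidneys that kept an uninjured partner, and stood between those kidneys and Control after nephrectomy. Calb1 (ENSMUSG00000028222, chromosome 4, 15881264 to 15908064 on the plus strand of GRCm38) ran from 243 through a median of 351 to 538 CPM in UIRI+Nx d7, 31.0 through 47.8 to 59.7 CPM in UIRI d7, 17.5 through 34.1 to 65.5 CPM in UIRI d3 and 479 through 628 to 877 CPM in Control. All 6 nephrectomised kidneys lay above all 12 other injured ones, and only the highest of them, at 538 CPM, reached into the Control range. On average Calb1 was at 56.5% of the Control mean in UIRI+Nx d7, 7.36% in UIRI d7 and 5.63% in UIRI d3. The log2 fold change of UIRI+Nx d7 over UIRI d7 was 2.94 (SE 0.28). Against Control it was -0.82 (SE 0.26) in UIRI+Nx d7, -3.76 (SE 0.29) in UIRI d7 and -4.15 (SE 0.30) in UIRI d3.

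The second cohort also had its highest Calb1 levels after nephrectomy. The 4 UIRI+Nx d7 libraries held 291, 168, 196 and 98.8 CPM, against 11.8 through 13.7 to 31.6 CPM in UIRI d7 and 17.7 through 23.2 to 28 CPM in UIRI d3. The nephrectomised libraries did not overlap with either of the other groups. On the log2 scale UIRI+Nx d7 was higher by 3.54 (SE 0.28) over UIRI d7 and 3.03 (SE 0.27) over UIRI d3, against 3.33 (SE 0.29) over UIRI d3 in the first cohort. Without nephrectomy, Calb1 was not called between UIRI d7 and UIRI d3, with a log2 fold change of 0.39 (SE 0.26, edgeR adjusted p = 0.583) in the first and -0.51 (SE 0.25, edgeR adjusted p = 0.219) in the second cohort. The second of these became a call without UIRI d7 replicate 6, the highest library of its group (edgeR adjusted p = 0.0291).

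**Figure D1:**
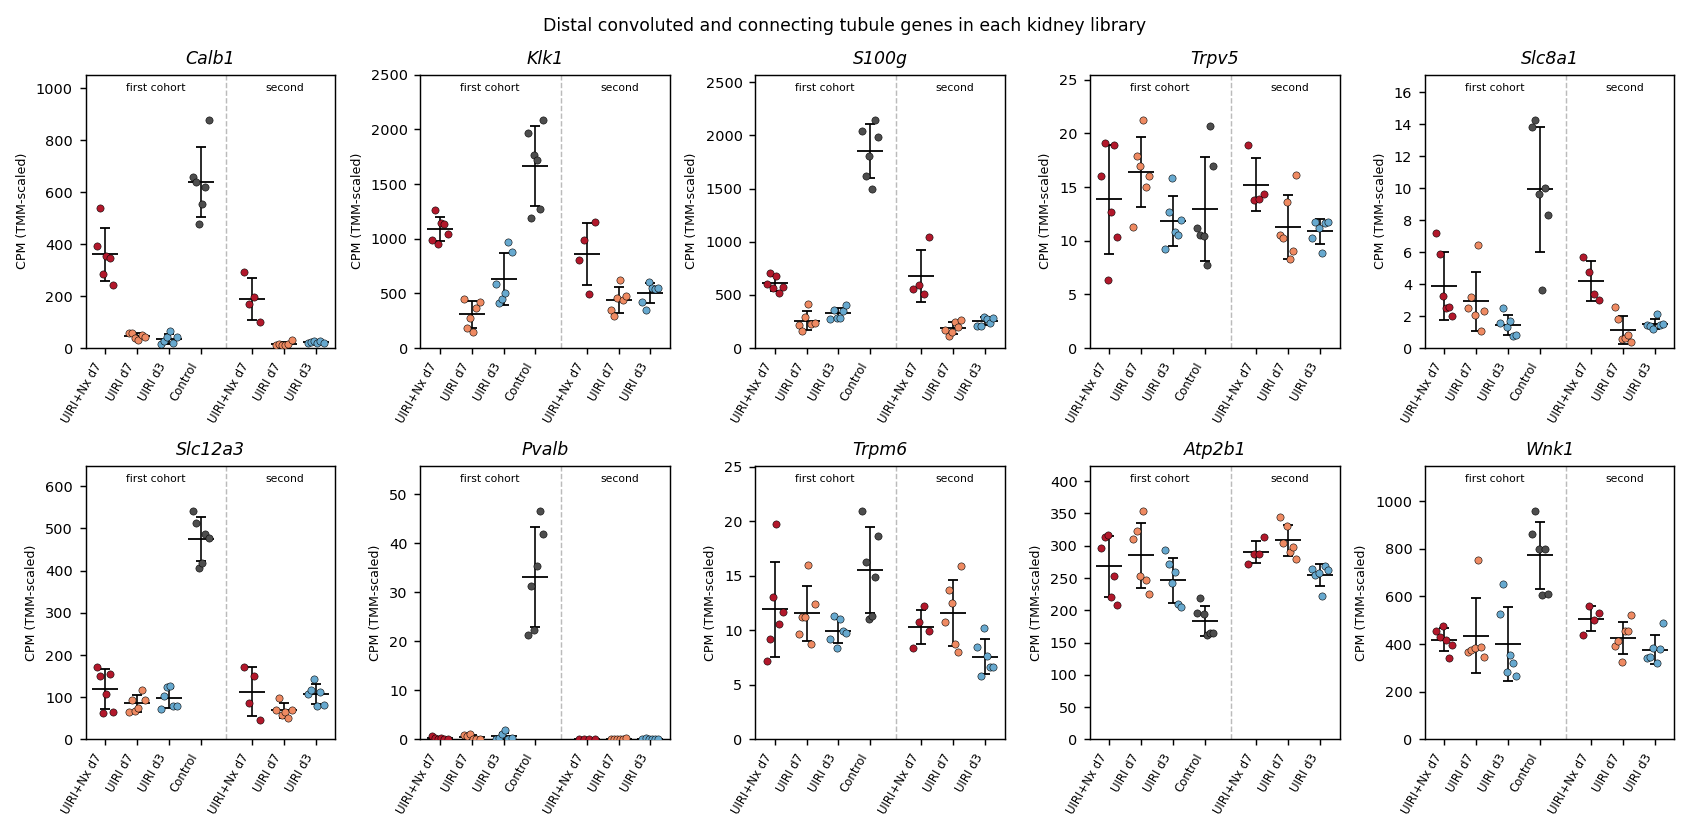
Level of each of the 10 genes in each library, in CPM with TMM factors on a linear axis from 0, for the first cohort (left of the dashed line) and the second (right). Points are libraries, the long bar is the group mean and the whiskers are 1 SD. Calb1 averaged 361 CPM in UIRI+Nx d7, 46.9 in UIRI d7 and 638 in Control, while Pvalb stayed under 1.9 CPM in every injured library.

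Klk1 (ENSMUSG00000063903, chromosome 7, 44225360 to 44229618 on the plus strand) ran from 953 through a median of 1089.7 to 1259 CPM in UIRI+Nx d7, 150.3 through 323 to 447 CPM in UIRI d7, 409 through 545 to 970.3 CPM in UIRI d3 and 1187 through 1743 to 2085 CPM in Control. UIRI+Nx d7 did not overlap with UIRI d7, and 1 of its 6 libraries, at 1259 CPM, lay within the Control range. Klk1 was at 65.3% of the Control mean in UIRI+Nx d7, 18.5% in UIRI d7 and 38.0% in UIRI d3. The log2 fold change was 1.82 (SE 0.26) for UIRI+Nx d7 over UIRI d7, and -0.62 (SE 0.25), -2.44 (SE 0.26) and -1.40 (SE 0.26) for UIRI+Nx d7, UIRI d7 and UIRI d3 over Control.

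Klk1 was lower on day 7 than on day 3 in the first cohort. UIRI d7 over UIRI d3 gave a log2 fold change of -1.04 (SE 0.25, edgeR adjusted p = 0.0233), and the groups overlapped. The call was lost without UIRI d7 replicate 2 (adjusted p = 0.0677) or replicate 3 (0.0585), or without UIRI d3 replicate 5 (0.0776) or replicate 6 (0.0581), in each case by edgeR. It was also lost on library size alone (edgeR adjusted p = 0.0627), with the library block as a covariate (0.0864) and in a fit of the 2 groups alone (0.098). The same difference was -0.20 (SE 0.20, edgeR adjusted p = 0.611) for the second cohort. There the UIRI+Nx d7 libraries held 807, 992, 495 and 1148 CPM of Klk1, against 291 through 449 to 623 CPM in UIRI d7 and 351 through 546 to 602 CPM in UIRI d3. A single nephrectomised library, at 495 CPM, lay within the ranges of both other groups, and the log2 fold change was 0.97 (SE 0.22) over UIRI d7 and 0.77 (SE 0.22) over UIRI d3.

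Klk1 belongs to a cluster of near-identical kallikrein genes whose reads may be assigned to one another. The 13 listed paralogs together held between 0.592% and 2.21% of the Klk1 count in any library with a group. Gm10109, a pseudogene on the opposite strand, overlaps Klk1 and held 195 counts over all 41 columns. Whether the counting used strand is not given in the sources used here.

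The promoter of Klk1 is shown with that of S100g because both genes were higher after nephrectomy in both cohorts. That of Slc12a3 is shown too, a gene whose levels with and without nephrectomy overlapped in both cohorts. The sequences are the 250 bases before the RefSeq start in GRCm38.p6, from 5′ to 3′ on the strand of the gene, at chr7:44225110-44225359 (plus) for Klk1, chrX:162964600-162964849 (minus) for S100g and chr8:94328958-94329207 (plus) for Slc12a3. Capitals mark matches to AGGTCA or its reverse complement TGACCT, the half-site of many nuclear receptors, and to TATAAA, the TATA box.
Klk1: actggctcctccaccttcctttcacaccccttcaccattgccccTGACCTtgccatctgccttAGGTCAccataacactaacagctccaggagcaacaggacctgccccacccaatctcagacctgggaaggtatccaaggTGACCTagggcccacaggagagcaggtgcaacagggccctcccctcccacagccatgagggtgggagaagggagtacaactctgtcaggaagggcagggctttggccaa
S100g: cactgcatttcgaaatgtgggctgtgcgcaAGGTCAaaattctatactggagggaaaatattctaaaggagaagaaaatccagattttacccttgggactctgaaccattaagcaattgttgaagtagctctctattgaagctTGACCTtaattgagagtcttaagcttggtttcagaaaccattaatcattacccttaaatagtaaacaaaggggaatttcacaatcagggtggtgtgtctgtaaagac
Slc12a3: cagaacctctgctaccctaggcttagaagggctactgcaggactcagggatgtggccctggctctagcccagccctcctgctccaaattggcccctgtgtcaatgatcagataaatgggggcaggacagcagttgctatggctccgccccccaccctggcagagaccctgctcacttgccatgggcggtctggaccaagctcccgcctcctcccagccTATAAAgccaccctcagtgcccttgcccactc
In Klk1 the half-site began at -187 on the strand of the gene and at -206 and -109 on the other, and in S100g at -220 on the strand of the gene and at -107 on the other. The TATA box began at -32 in Slc12a3 and, in a promoter not shown, at -43 in Trpv5. Of 9 genes with a promoter in the table, 2 held the nuclear receptor half-site and 2 held the TATA box on either strand, against 14.0% and 12.4% of 32851 promoters. The counts are by gene and the shares by promoter, and Pvalb and Atp2b1 each had a further promoter in the table. Calb1 had no promoter there and was not searched. The promoter of Slc8a1, which was higher after nephrectomy in the second cohort, held neither. GTTAAT, the half-site of the factor HNF1, was searched on both strands too and was in none of the 9, against 6.43% of all promoters. These are matches of letters and not shown to be sites, and a link between them and the levels was not tested.

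Both calbindins were lower after injury, and S100g, like Calb1, had nephrectomised kidneys that stood above all other injured ones in both cohorts. S100g (ENSMUSG00000040808, chromosome X, 162961992 to 162964599 on the minus strand) ran from 520.3 through a median of 588 to 703 CPM in UIRI+Nx d7, 165 through 229 to 417 CPM in UIRI d7, 277 through 317 to 409 CPM in UIRI d3 and 1493 through 1899 to 2143 CPM in Control. The 6 nephrectomised kidneys lay above all other injured kidneys and below all Control kidneys. The mean was 32.8% of Control in UIRI+Nx d7, 14.0% in UIRI d7 and 17.7% in UIRI d3.

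S100g fell against Control in each injured group. The log2 fold change was -1.61 in UIRI+Nx d7 (SE 0.18, edgeR adjusted p = 1.44e-07), -2.84 in UIRI d7 (SE 0.19, edgeR adjusted p = 1.95e-11) and -2.50 in UIRI d3 (SE 0.19, edgeR adjusted p = 1.2e-10). It rose in UIRI+Nx d7 over UIRI d3 by 0.89 (SE 0.18, edgeR adjusted p = 0.00327). UIRI+Nx d7 over UIRI d7 gave 1.23 (SE 0.18).

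The UIRI+Nx d7 libraries of the second cohort held 559, 596, 509 and 1047 CPM of S100g, against 114 through 182 to 267 CPM in UIRI d7 and 206 through 256 to 289 CPM in UIRI d3. All 4 lay above all 12 others, with the last of them far above the rest of its group. The gene rose over UIRI d3 by 1.44 on the log2 scale (SE 0.22, edgeR adjusted p = 0.000452), and the difference over UIRI d7 was 1.84 (SE 0.22). S100g lies inside Ctps2, which runs on the opposite strand and held 12952 counts over all columns against 358968 for S100g.

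The rest of the calcium route did not move as one. Trpv5 (chromosome 6), the entry channel, had 6.30 to 19.1 CPM in UIRI+Nx d7, 11.3 to 21.2 in UIRI d7, 9.19 to 15.8 in UIRI d3 and 7.78 to 20.7 in Control, and every group overlapped with every other. Its log2 fold change over Control was 0.11 in UIRI+Nx d7 (SE 0.25, edgeR adjusted p = 0.791), 0.34 in UIRI d7 (SE 0.25, edgeR adjusted p = 0.294) and -0.13 in UIRI d3 (SE 0.25, edgeR adjusted p = 0.732). On library size alone the UIRI d7 value became 0.70 and a call (edgeR adjusted p = 0.0153). All 4 UIRI+Nx d7 libraries of the second cohort, at 18.9, 13.8, 13.9 and 14.3 CPM, lay above the highest UIRI d3 library at 11.8 CPM, with a log2 fold change of 0.48 (SE 0.18, edgeR adjusted p = 0.128).

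Slc8a1 (ENSMUSG00000054640, chromosome 17), which passes calcium to the blood in exchange for sodium, was counted thinly, with 11 to 275 counts a library in the first and 2 to 119 in the second cohort. It held 2.0 through 2.9 to 7.19 CPM in UIRI+Nx d7, 1.08 through 2.39 to 6.43 CPM in UIRI d7, 0.778 through 1.46 to 2.49 CPM in UIRI d3 and 3.63 through 9.83 to 14.3 CPM in Control. The single Control library at 3.63 CPM overlapped with the day 7 groups, and UIRI d3 lay below all of Control. The gene fell in each injured group, with log2 fold changes of -1.36 in UIRI+Nx d7 (SE 0.39, edgeR adjusted p = 0.00795), -1.78 in UIRI d7 (SE 0.39, edgeR adjusted p = 0.000672) and -2.79 in UIRI d3 (SE 0.42, edgeR adjusted p = 6.85e-06).

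Over UIRI d3, Slc8a1 rose in UIRI+Nx d7 by 1.43 (SE 0.41, edgeR adjusted p = 0.0403) in the first and 1.49 (SE 0.39, edgeR adjusted p = 0.0246) in the second cohort. The first of these calls was lost in 8 of 24 fits that left out a library, namely UIRI+Nx d7 replicate 1, 2 or 3 or UIRI d3 replicate 1, 3, 4, 5 or 6 (edgeR adjusted p from 0.0602 to 0.11). The second was lost in 5 of 16, namely UIRI+Nx d7 replicate 1 or 2 or UIRI d3 replicate 2, 3 or 5 (edgeR adjusted p from 0.0503 to 0.0814). Over UIRI d7 the difference was 0.42 (SE 0.40) with overlap in the first cohort. In the second it was 1.74 (SE 0.39) and the 4 nephrectomised libraries, at 5.71, 4.75, 3.40 and 2.99 CPM, lay above the highest UIRI d7 library at 2.56 CPM.

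Atp2b1 (chromosome 10), the calcium pump, was the 1 gene of the 10 that rose with injury. It had 208 to 316 CPM in UIRI+Nx d7, 225 to 353 CPM in UIRI d7, 205 to 293 CPM in UIRI d3 and 162 to 219 CPM in Control, and UIRI d7 lay above all of Control. Log2 fold changes were 0.55 in UIRI+Nx d7 (SE 0.15, edgeR adjusted p = 0.00671), 0.64 in UIRI d7 (SE 0.15, edgeR adjusted p = 0.00139) and 0.43 in UIRI d3 (SE 0.15, edgeR adjusted p = 0.0316). The last was lost without Control replicate 4, 5 or 6 or UIRI d3 replicate 1, 2 or 4 (edgeR adjusted p from 0.0588 to 0.0812) and with no filter on low counts (0.0876). Between nephrectomy and none on day 7 it differed by -0.09 (SE 0.15) in the first and -0.09 (SE 0.11) in the second cohort.

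The sodium chloride cotransporter fell in each injured group, and its levels with and without nephrectomy on day 7 overlapped in both cohorts. Slc12a3 (ENSMUSG00000031766, chromosome 8, 94329201 to 94366214 on the plus strand) ran from 63.0 through a median of 129 to 171 CPM in UIRI+Nx d7, 64.6 through 84.7 to 116 CPM in UIRI d7, 73.0 through 91.0 to 126 CPM in UIRI d3 and 407 through 483 to 540.4 CPM in Control. No injured kidney reached the Control range. The nephrectomised group was spread, with 4 kidneys at 108 to 171 CPM and 2 at 63.0 and 65.4 CPM, the lowest of which lay below all of UIRI d7. Slc12a3 fell, with log2 fold changes of -2.0 (SE 0.23, edgeR adjusted p = 1.85e-07), -2.47 (SE 0.24, edgeR adjusted p = 5.13e-09) and -2.29 (SE 0.23, edgeR adjusted p = 2.23e-08) in UIRI+Nx d7, UIRI d7 and UIRI d3 over Control. Its mean was 25%, 18% and 20.5% of Control in those 3 groups.

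Over UIRI d7 the log2 fold change of Slc12a3 in UIRI+Nx d7 was 0.48 (SE 0.23) in the first and 0.72 (SE 0.27) in the second cohort, with overlap in both. The second cohort repeated the spread, with 172, 85.9, 149 and 44.8 CPM in UIRI+Nx d7 against 50.5 to 99.2 CPM in UIRI d7 and 79.7 to 144 CPM in UIRI d3. Replicate 4 held the lowest Slc12a3 and Calb1 and the highest Klk1 and S100g of the 4 nephrectomised libraries. Between UIRI d7 and UIRI d3 Slc12a3 was not called in either cohort (edgeR adjusted p = 0.807 and 0.119), though in the second it was called lower without UIRI+Nx d7 replicate 4 (0.0416) and in a fit of the 2 groups alone (0.0221).

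Wnk1 (chromosome 6) had 341 to 478 CPM in UIRI+Nx d7, 347 to 755 CPM in UIRI d7, 264 to 651 CPM in UIRI d3 and 606 to 957 CPM in Control. A single UIRI d7 and a single UIRI d3 kidney reached into the Control range and UIRI+Nx d7 lay below it. It fell, with log2 fold changes of -0.88 (SE 0.22, edgeR adjusted p = 0.00282), -0.83 (SE 0.22, edgeR adjusted p = 0.00362) and -0.95 (SE 0.22, edgeR adjusted p = 0.00139) in UIRI+Nx d7, UIRI d7 and UIRI d3. On library size alone the UIRI d7 value was -0.50 and no longer called (edgeR adjusted p = 0.0571). Nephrectomy against none on day 7 gave -0.05 (SE 0.22) in the first and 0.25 (SE 0.14) in the second cohort. Over UIRI d3, UIRI+Nx d7 of the second cohort gave 0.43 (SE 0.14, edgeR adjusted p = 0.0914), a call without UIRI d3 replicate 6 (0.027).

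Parvalbumin was nearly absent from every injured kidney and stayed so after nephrectomy. Pvalb (ENSMUSG00000005716, chromosome 15, 78191114 to 78206400 on the minus strand) held 0 to 0.773 CPM in UIRI+Nx d7, 0 to 1.04 CPM in UIRI d7 and 0 to 1.89 CPM in UIRI d3, with 0 counts in 2, 3 and 2 of the 6 libraries, against 21.3 to 46.5 CPM in Control, with a mean there of 33.1 ± 10.2 CPM (SD, n = 6). No injured kidney came near the lowest Control kidney. The log2 fold change over Control was -7.05 (SE 0.77, edgeR adjusted p = 7e-08), -6.09 (SE 0.71, edgeR adjusted p = 1.3e-07) and -5.85 (SE 0.70, edgeR adjusted p = 2.37e-07) in those groups. These rest on sums of 18, 39 and 44 counts over 6 libraries each, against 3352 in Control. Without UIRI+Nx d7 replicate 1 the first was -7.91, and without UIRI d3 replicate 4 the last was -6.81.

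In the second cohort Pvalb was under the filter on low counts and was not tested. All 4 UIRI+Nx d7 libraries held 0 counts, which over their total of 58487154 counts allows a level of up to 0.0513 CPM (3 counts, counting error only). UIRI d7 held 7 counts and UIRI d3 held 11. Skeletal muscle also makes parvalbumin, and its markers Acta1, Ckm, Myh4, Mylpf and Tnnt3 summed to 0.681 to 3.41 CPM in UIRI+Nx d7, 0.924 to 4.25 CPM in UIRI d7, 3.49 to 7.92 CPM in UIRI d3 and 0.680 to 1.45 CPM in Control. Their median sum was 2.31, 2.14, 5.28 and 0.983 CPM in these groups, and their part in the Pvalb level was not tested. Myh4 was at 0 in the 3 injured groups and Tnnt3 in Control.

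Trpm6 (chromosome 19), the magnesium channel, had overlapping levels in all groups of the first cohort. It had 7.19 to 19.8 CPM in UIRI+Nx d7, 8.73 to 16.0 CPM in UIRI d7, 8.42 to 11.3 CPM in UIRI d3 and 11 to 20.9 CPM in Control. It fell, with a log2 fold change of -0.64, in UIRI d3 (SE 0.21, edgeR adjusted p = 0.0225). That call was lost without Control replicate 1 (edgeR adjusted p = 0.0674) or replicate 6 (0.0522) and on library size alone (0.184). It was not called in UIRI+Nx d7 (-0.37, SE 0.21, edgeR adjusted p = 0.197) or UIRI d7 (-0.43, SE 0.21, edgeR adjusted p = 0.115). Without UIRI+Nx d7 replicate 4, its highest kidney at 19.8 CPM, the UIRI+Nx d7 value became a call (0.0286), and without UIRI d7 replicate 4 the UIRI d7 value did (0.0477). For the second cohort, it rose in UIRI d7 over UIRI d3 by 0.61 (SE 0.19, edgeR adjusted p = 0.0461), a call lost in 11 of 16 fits that left out a library, namely UIRI+Nx d7 replicate 2 or 4, UIRI d7 replicate 1, 2, 3 or 6 or any UIRI d3 replicate but replicate 3 (0.053 to 0.112).

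**Figure D2:**
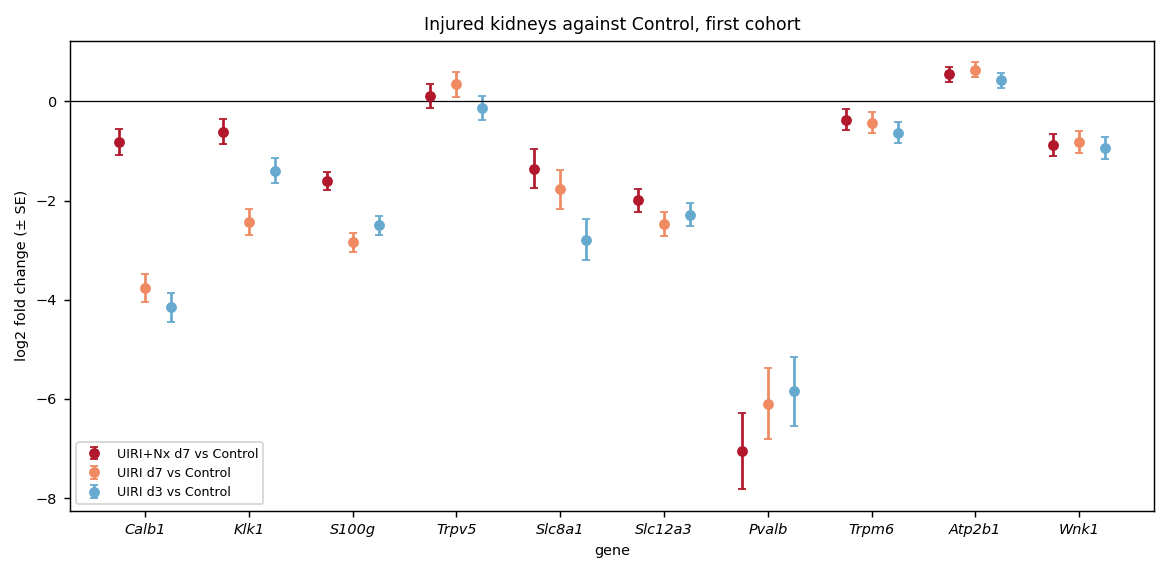
Log2 fold change of each of the 10 genes over Control in the first cohort, with the standard error as whiskers, for UIRI+Nx d7, UIRI d7 and UIRI d3 (6 libraries a group). Calb1 stands at -0.82 in UIRI+Nx d7 and -3.76 in UIRI d7, whereas the values of Wnk1, Atp2b1 and Trpm6 lie close together in the 3 groups.

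Counted over the 10 genes, 1 rose and 6 fell in UIRI+Nx d7 against Control, where 17.3% and 14.0% of all genes tested did. In UIRI d7 against Control 1 rose and 7 fell, beside 21.5% and 18.1% of all genes. In UIRI d3 against Control 1 rose and 8 fell, beside 17.8% and 14.9% of all genes. The list was chosen with these losses known, so nothing is read from the counts, and the p-values against Control stand under that limit too. The median log2 fold change of the 10 genes was -0.85, -2.11 and -1.84 in those comparisons, beside 0.02, 0.04 and 0.00 over all genes tested. The groups did not overlap, with Control higher, for 4, 5 and 6 of the 10 genes, beside 7.38%, 9.61% and 8.08% of all genes, and Atp2b1 lay above all of Control in UIRI d7, beside 10.9%. When libraries were scaled by total count alone, the median gene was higher than Control by 0.29, 0.39 and 0.26 on the log2 scale in the 3 groups. The genes that fell on the main scaling were still lower, with the calls of Wnk1 in UIRI d7 and Trpm6 in UIRI d3 lost.

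Between UIRI+Nx d7 and UIRI d7, 3 of 10 genes passed the threshold higher and 0 lower in the first cohort, beside 3.17% and 3.46% of all genes. The second cohort gave 4 of 9 and 0, beside 2.58% and 2.66%. The genes were Calb1, Klk1 and S100g in both cohorts and Slc8a1 in the second. Without UIRI+Nx d7 replicate 2 of the second cohort, Klk1 and Slc8a1 no longer passed, which left 2 genes, and without replicate 4 Slc12a3 passed and Klk1 did not. UIRI+Nx d7 lay above all of UIRI d7 for 3 genes in each cohort (Calb1 and S100g with Klk1 or Slc8a1), beside 1.56% and 3.03% of all genes. The rule used this contrast, and nothing is read from the counts. For UIRI+Nx d7 over UIRI d3, 3 of 10 (Calb1, S100g and Slc8a1) were higher in the first and 4 of 9 (the same 3 and Klk1) in the second cohort, beside 2.06% and 2.97% of all genes, and 0 were lower, beside 3.06% and 3.04%. The choice of Calb1 and Klk1 used this contrast too, so nothing is read from its counts. UIRI d7 against UIRI d3 gave 0 higher and 1 lower, Klk1, in the first cohort, beside 1.24% and 1.36% of all genes. The second gave 1 higher, Trpm6, and 0 lower, beside 4.51% and 4.05%. Groups did not overlap, with UIRI+Nx d7 above UIRI d3, for Calb1 and S100g in the first cohort, beside 1.21% of all genes, and for Calb1, S100g, Slc8a1, Trpv5 and Atp2b1 in the second, beside 3.04%. Atp2b1 was also the 1 gene with UIRI d7 above all of UIRI d3 in the second cohort, beside 2.86% of all genes, with a log2 fold change of 0.27 (SE 0.10, edgeR adjusted p = 0.0823), and DESeq2 called it (0.0141). The comparisons share groups and are not independent of each other.

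The libraries fall into blocks by the sheet and library numbers of their column names, and within blocks the main differences had the same sign. Calb1 was higher in UIRI+Nx d7 than in UIRI d7 by 3.04 in block 1a of the first cohort and by 3.98 and 3.10 in blocks 2a and 2c of the second. Klk1 was higher by 2.05, 1.49 and 0.71 in these blocks, and S100g by 1.23, 2.03 and 1.86. Slc8a1 differed by 0.49, 1.26 and 2.36. Block 2b held no UIRI d7 library and block 2c no UIRI d3 library. S100g in UIRI+Nx d7 over UIRI d3 was 0.98 in block 1a and 0.69 in block 2b and not called in either (edgeR adjusted p = 0.198 and 0.408), with 2 or 3 libraries a group, and 1.2 in block 2a (0.00301).

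Whether the cohorts differed was tested in a joint fit of 16606 genes as the difference between their fold changes. For UIRI+Nx d7 against UIRI d7, edgeR called 0 of these genes, a share of 0%, with 1411 at an unadjusted p under 0.05. DESeq2, run on 31002 genes, called 1, which is not among the 10. A lack of calls does not show that the cohorts were alike. For UIRI d7 against UIRI d3, edgeR called 0 (0%), with 484 at an unadjusted p under 0.05, and DESeq2 called 0 of its 31002. Second minus first cohort, the log2 fold changes of UIRI+Nx d7 over UIRI d7 differed by -0.85 for Klk1 (SE 0.36) and 1.33 for Slc8a1 (SE 0.58). The difference was 0.60 for Calb1 (SE 0.39) and 0.61 for S100g (SE 0.29). These are descriptions with no p, because the rule used this contrast. 

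A further 43 genes of distal salt, magnesium and calcium handling were listed by function, with earlier results of these data known. Nothing is therefore read from the counts of these genes called, and their p-values stand under that limit. Of the 43, 42 were tested in the first and 43 in the second cohort. Against Control 3 rose and 18 fell in UIRI+Nx d7, 1 rose and 27 fell in UIRI d7, and 1 rose and 26 fell in UIRI d3. The shares of all genes in these comparisons are given above. The median log2 fold change was -0.42, -0.91 and -0.79. Kcnj10, the potassium channel that sets the membrane voltage of distal convoluted tubule cells, averaged 32.9 ± 6.60 CPM in UIRI+Nx d7, 12.2 ± 1.79 in UIRI d7, 13.3 ± 1.52 in UIRI d3 and 39.3 ± 3.10 in Control (SD, n = 6 each). Its log2 fold change over Control was -1.69 in UIRI d7 (SE 0.15, edgeR adjusted p = 1.44e-09) and -1.57 in UIRI d3 (SE 0.15, edgeR adjusted p = 5.67e-09).

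Among the 13 genes of sodium chloride transport and WNK signalling, 9 fell in UIRI d7 and 8 in UIRI d3. Wnk4, the kinase that acts on the cotransporter in these cells, fell, with log2 fold changes of -1.52 and -1.47, and Bsnd, the subunit of the chloride channels, of -1.90 and -2.09. In UIRI+Nx d7 against Control 4 fell and 1, Sgk1, rose (0.79, SE 0.29, edgeR adjusted p = 0.0387), a call lost without UIRI+Nx d7 replicate 2, 4 or 6 or Control replicate 1, 2, 5 or 6 (0.0561 to 0.095). Klhl3, part of the ligase that removes WNK kinases, fell there, with a log2 fold change of -2.11 (SE 0.36, edgeR adjusted p = 4.41e-05), Bsnd of -1.17 and the channel Kcnj16 of -0.60. All 9 genes of the sodium and potassium channels and pump fell in UIRI d3, 7 in UIRI d7 and 4 in UIRI+Nx d7. Fxyd2, the regulatory subunit of the sodium pump, fell, with log2 fold changes of -1.26, -1.54 and -1.07 in UIRI+Nx d7, UIRI d7 and UIRI d3, and Atp1b1, its beta subunit, of -0.63, -1.25 and -1.25. Atp1b1 was not called in UIRI+Nx d7 on library size alone (edgeR adjusted p = 0.0917).

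The magnesium list held the largest loss among the 43 genes. Egf, the growth factor made in the distal nephron and a stimulus of magnesium uptake, averaged 18.9 ± 12.5 CPM in UIRI+Nx d7, 17.8 ± 4.60 in UIRI d7, 23.5 ± 3.20 in UIRI d3 and 578 ± 165 in Control (SD, n = 6 each). It fell, with log2 fold changes of -4.93, -5.02 and -4.62 on the log2 scale, and like Pvalb it was not called higher after nephrectomy. Its log2 fold change over UIRI d7 was 0.09 (SE 0.30, edgeR adjusted p = 0.91) in the first and -0.70 (SE 0.26, edgeR adjusted p = 0.132) in the second cohort, the last a call, lower, without UIRI+Nx d7 replicate 1 (0.0417). Over UIRI d3 Egf fell in UIRI+Nx d7 of the second cohort, with a log2 fold change of -1.15 (SE 0.26, edgeR adjusted p = 0.00947). Of 7 genes of this list tested, 4, 4 and 3 fell against Control. Cnnm2, a magnesium transporter of the basolateral side, fell in UIRI+Nx d7, with a log2 fold change of -0.96 (SE 0.18, edgeR adjusted p = 0.000179).

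Of 8 genes of calcium and its hormones, 2 rose and 4 fell in UIRI+Nx d7, 1 rose and 4 fell in UIRI d7, and 1 rose and 3 fell in UIRI d3. The gene that rose in all 3 was Trpv6, the close relative of Trpv5, by 2.20, 2.88 and 2.44, at levels of 0.543 to 2.45 CPM, 1.67 to 3.79 CPM and 0.707 to 2.75 CPM in those groups, against 0 to 0.595 CPM in Control. Kl (klotho), the coreceptor for FGF23 made in distal tubules, fell, with log2 fold changes of -1.98, -2.10 and -1.63. Vdr, the vitamin D receptor, fell, with log2 fold changes of -0.83, -1.03 and -1.10. Pth1r, the parathyroid hormone receptor, fell, with log2 fold changes of -1.49 in UIRI+Nx d7 and -0.90 in UIRI d7. Of the 5 transcription factors, Sall3 and Emx1 fell in all 3 groups and Tfap2b in UIRI d7 and UIRI d3.

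**Figure D3:**
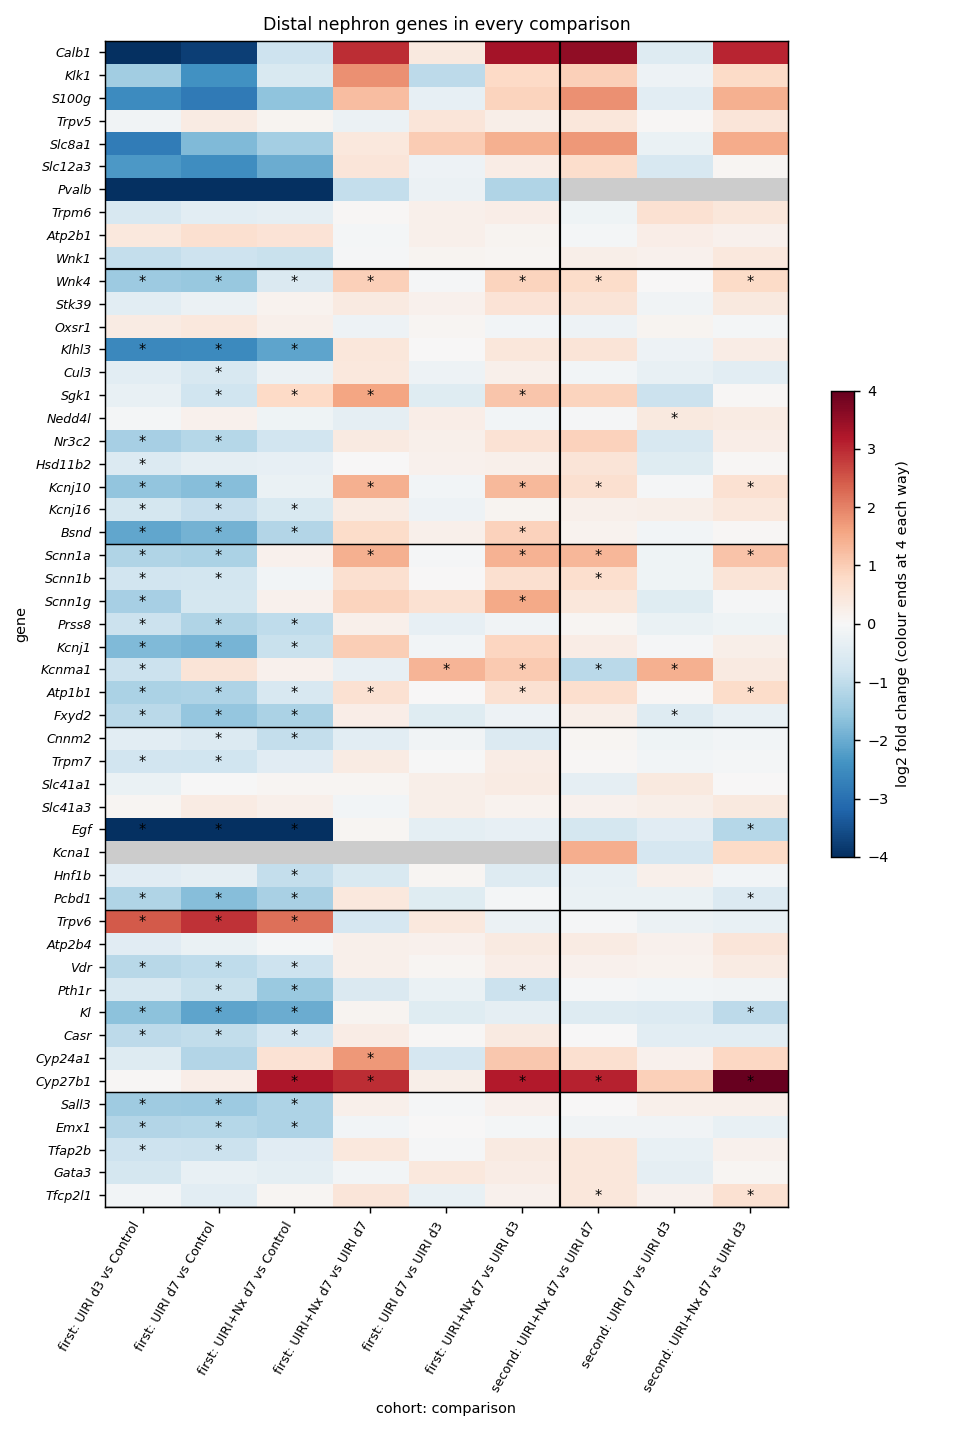
Log2 fold change of the 10 genes (above the thick line) and of 41 of the 43 other distal genes, grouped by function, in the 6 comparisons of the first cohort and the 3 of the second (right of the vertical line). Red is higher and blue lower in the group named first, colour ends at 4 in each direction, grey marks genes not tested, and stars mark an edgeR adjusted p under 0.05, which is shown only for the genes below the thick line. The column for UIRI+Nx d7 against UIRI d7 holds red for Calb1, Klk1, S100g, Kcnj10, Scnn1a and Cyp27b1 in both cohorts.

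Between UIRI+Nx d7 and UIRI d7, 9 of these 42 genes rose and 0 fell in the first cohort, and 7 of 43 rose and 1 fell in the second. Beside these stand 3.17% and 3.46% of all genes in the first and 2.58% and 2.66% in the second. The list was made with earlier results of these data known, so nothing is read from the counts. Kcnj10, Wnk4, Scnn1a and Cyp27b1 were among those called in both cohorts. Kcnj10 had 32.9 ± 6.60 CPM in UIRI+Nx d7 and 12.2 ± 1.79 CPM in UIRI d7 (SD, n = 6 each), with no overlap, a log2 fold change of 1.43 (SE 0.15, edgeR adjusted p = 1.57e-06). The second cohort had 21.9 ± 1.54 CPM (SD, n = 4) and 13.9 ± 1.56 CPM (SD, n = 6), a log2 fold change of 0.65 (SE 0.13, edgeR adjusted p = 0.00584). Wnk4 rose by 0.95 (SE 0.15, edgeR adjusted p = 0.000198) and 0.75 (SE 0.16, edgeR adjusted p = 0.0104). Without UIRI+Nx d7 replicate 2 the Wnk4 call of the second cohort was lost (edgeR adjusted p = 0.0781). Sgk1, the kinase that aldosterone induces, rose in the first cohort by 1.59 (SE 0.30, edgeR adjusted p = 0.00146) and was not called in the second (0.90, SE 0.31, edgeR adjusted p = 0.111), although it was without UIRI d3 replicate 4 (0.0234) and in a fit of the 2 groups alone (0.0223).

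Scnn1a, the alpha subunit of the epithelial sodium channel, rose in both cohorts. It averaged 64.2 ± 37.4 CPM in UIRI+Nx d7 and 24.0 ± 12 CPM in UIRI d7 of the first cohort (SD, n = 6 each), a log2 fold change of 1.43 (SE 0.30, edgeR adjusted p = 0.00418) with overlap. In the second the log2 fold change was 1.33 (SE 0.23, edgeR adjusted p = 0.00176) with no overlap. Scnn1b rose in the second by 0.68 (SE 0.16, edgeR adjusted p = 0.0173), lost without UIRI+Nx d7 replicate 2 (0.0967), and Kcnma1, a potassium channel of flow-induced secretion, fell there, with a log2 fold change of -1.09 (SE 0.27, edgeR adjusted p = 0.0208), after a rise in UIRI d7 over UIRI d3 of 1.36 and 1.44 in the 2 cohorts. That fall was lost without UIRI+Nx d7 replicate 1 (0.0585) or 2 (0.0934). The pump subunit Atp1b1 rose in the first cohort by 0.61 (edgeR adjusted p = 0.0335). That call was lost in 8 of 24 fits that left out a library, UIRI+Nx d7 replicate 1, 2, 3 or 6 and UIRI d7 replicate 1, 2, 5 or 6 (0.0514 to 0.0804). It was also lost on library size alone (edgeR adjusted p = 0.0503), with no filter on low counts (0.102) and in a fit of the 2 groups alone (0.112). In the second cohort Atp1b1 was not called (0.67, edgeR adjusted p = 0.0705), although DESeq2 called it (0.0307), as did edgeR in 3 of 16 fits that left out a library.

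Among the 43 genes the largest fold change of UIRI+Nx d7 over UIRI d7 was that of Cyp27b1 in both cohorts. Cyp27b1, which makes active vitamin D, had 1.25 to 19.6 CPM in UIRI+Nx d7 and 0 to 1.72 CPM in UIRI d7 of the first cohort, and 1.28 to 19.7 CPM and 0.187 to 2.44 CPM in those groups of the second. Its log2 fold change was 2.95 (SE 0.72, edgeR adjusted p = 0.0124) and 3.09 (SE 0.72, edgeR adjusted p = 0.0164), with overlap in both. In the second cohort the call was lost without UIRI+Nx d7 replicate 1, where the log2 fold change was 2.02 (edgeR adjusted p = 0.123). Cyp27b1 is known mainly from the proximal tubule. Cyp24a1, which breaks active vitamin D down and is a target of its receptor, rose in the first cohort by 1.74 (SE 0.51, edgeR adjusted p = 0.0386) and was not called in the second (0.65, SE 0.38). That call was lost in 8 of 24 fits that left out a library, UIRI+Nx d7 replicate 1, 2, 3 or 5 and UIRI d7 replicate 2, 3, 4 or 5 (0.0505 to 0.0858).

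**Figure D4:**
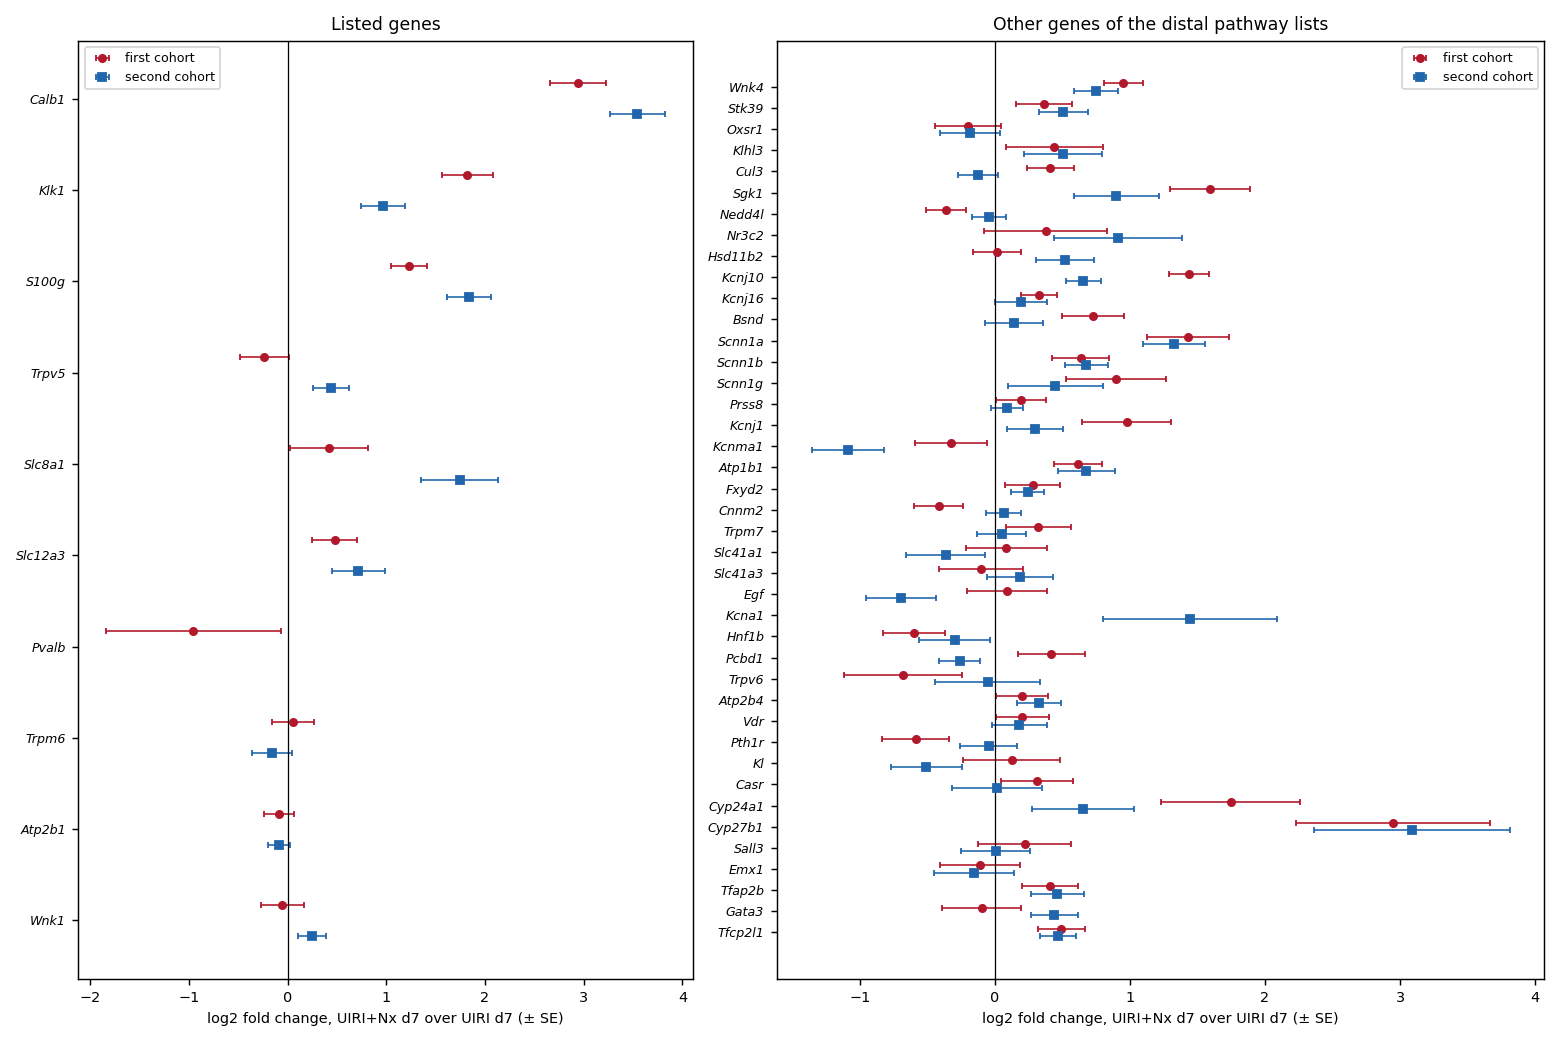
Log2 fold change of UIRI+Nx d7 over UIRI d7 with the standard error as whiskers, for the 10 genes (left) and 41 of the 43 other distal genes (right), in the first cohort (6 against 6 libraries, circles) and the second (4 against 6, squares). Calb1 lies at 2.94 and 3.54, S100g at 1.23 and 1.84 and Klk1 at 1.82 and 0.97, while Pvalb was tested in the first cohort alone.

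Markers of other nephron segments were lower after injury, and some rose in UIRI+Nx d7 over UIRI d7. Among all genes tested, 3.17% rose there in the first and 2.58% in the second cohort. In UIRI d7 against Control 21.5% of all genes rose and 18.1% fell. Principal cell markers (Aqp2, Aqp3, Aqp4, Avpr2, Fxyd4, Elf5, and Hsd11b2, which the salt list also holds) summed to 409 to 1002 CPM in UIRI+Nx d7, 279 to 593 CPM in UIRI d7, 292 to 1044 CPM in UIRI d3 and 627 to 1482 CPM in Control. Of the 7, 0 rose and 5 fell in UIRI d7 against Control, and 1 rose in UIRI+Nx d7 against UIRI d7 for the first cohort and 2 for the second. Intercalated cell markers summed to 193 to 323, 178 to 237, 157 to 225 and 423 to 581 CPM in UIRI+Nx d7, UIRI d7, UIRI d3 and Control, with 6 of 7 falling in UIRI d7 against Control and 1 rising after nephrectomy in each cohort. Thick ascending limb markers summed to 1766 to 3070, 1469 to 2037, 2167 to 3165 and 4707 to 6625 CPM, and 0 of 8 were called between UIRI+Nx d7 and UIRI d7 in either cohort. Proximal tubule markers summed to 2708 to 5739, 2957 to 4117, 4590.4 to 5268 and 10015 to 13084 CPM, and all 10 fell in UIRI d7 against Control. Of these 10, 2 rose in UIRI+Nx d7 over UIRI d7 in the first cohort and 1 did in the second. There 5 fell in UIRI+Nx d7 against UIRI d3, beside 3.04% of all genes. No marker of these 4 lists was at 0 in a whole group.

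Macrophage and fibroblast markers were higher after injury. Macrophage markers summed to 1063 to 2139 CPM in UIRI+Nx d7, 1383 to 3133 in UIRI d7, 428 to 855 in UIRI d3 and 163 to 325 in Control, with 7 of 7 rising in UIRI d7 against Control and 1 falling in UIRI+Nx d7 against UIRI d7 in each cohort. Fibroblast markers summed to 2051 to 2650.0 CPM in UIRI+Nx d7, 1346 to 2415 in UIRI d7, 1226 to 2074 in UIRI d3 and 267 to 426 in Control, with 4 of 5 rising in UIRI d7 against Control. None of the 5 was called by edgeR between UIRI+Nx d7 and UIRI d7 in either cohort, where their median sums were 2198 and 1433 CPM in the first cohort and 1560.4 and 1436 CPM in the second. Smooth muscle markers rose in 2 of 4 in UIRI d7 against Control, and 2 of 5 urothelial markers fell. Of 5 podocyte markers 1 rose and 1 fell there, near the shares of all genes. Of the glandular markers Amy1, Cela1 and Prss1, Prss1 was at 0 in every group and the other 2 fell in UIRI d7 against Control. The part of these cell types in the levels of the 10 genes was not tested.

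The genes most like Calb1 and Klk1 were sought by the mean absolute difference of their 3 log2 fold changes over Control in the first cohort, among 10201 genes with a Control mean of at least 5 CPM. Nearest to Calb1 were Gpx6, Apobec2, Perm1, Ces1g and Kcnt1, and on average Gpx6 differed by 0.56 and Kcnt1 by 0.84 on the log2 scale. In UIRI+Nx d7 over Control they had -1.95, -1.48, -2.93, -0.35 and -3.19, against -0.82 for Calb1. Perm1 averaged 0.831 and 0.449 CPM and Kcnt1 0.641 and 0.519 CPM in UIRI+Nx d7 and UIRI d7. Gpx6 averaged 7.01 CPM in UIRI+Nx d7, 1.65 in UIRI d7, 1.80 in UIRI d3 and 27.4 in Control. In the second cohort, which the search did not use, Gpx6 and Apobec2 had log2 fold changes of 1.53 and 1.25 for UIRI+Nx d7 over UIRI d7 and Ces1g had -0.32. Perm1 and Kcnt1 were under the filter there. Cnnm1, AW822252, Dhtkd1 and St6galnac3 were among the 5 nearest to Klk1, Cnnm1 within 0.13 on average, and in the second cohort their values for UIRI+Nx d7 over UIRI d7 were 0.52, 2.08, 0.58 and 1.56.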

How the data were processed

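RNA of 40 kidney samples was counted by gene with 3′-end libraries (QuantSeq 3′ FWD), and 1 further column is titled UNDETERMINED. Per the submitters' processing notes, Trimmomatic, STAR, HTSeq 0.6.1 and GRCm38 (mm10) are named for the first cohort, and STAR 2.7.11b and GRCm39 for the second and for that column. The deposited values are raw counts of 48795 genes in 1 table that the authors made for both cohorts. Symbols were matched by gene ID from a table of gene names, with 446 genes unmatched, and positions come from a GENCODE annotation of GRCm38. The counter of the second cohort and whether counting used strand were not given in the sources used here.

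Each cohort was fitted alone on all its groups with edgeR 4.0.16 in R 4.3.3 (TMM factors, filterByExpr by group, quasi-likelihood F test, Benjamini-Hochberg adjustment over all genes tested, threshold 0.05), and a joint fit gave the difference between cohorts. The scripts were tested on simulated data. Alternatives were DESeq2 1.42.0, other scalings, no filter on low counts, stricter thresholds, library or replicate number as a block, the 2 groups alone, single blocks and leaving out each library. Library blocks were read from the numbers in the column names and are named in no label.

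The 10 genes, the 43 other distal genes and the marker lists were chosen with earlier results of these data known. Named were all 10 genes, up to 3 genes a pathway list by smallest adjusted p and the 5 genes nearest to Calb1 and to Klk1 in fold change. Other genes named were chosen after their values were seen. Some genes are not reported here. No replicate pair had identical counts, and the smallest chi-square per degree of freedom between replicates was 8.57. Intervals and floors cover counting error only.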

Additional observations from a re-analysis of the deposited data

Results flagged for a closer look

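Over 69 sets of the values of 1 gene in 1 group (4 or 6 libraries), 7 held a library far from the others, which chance gives in about 1 of 20 sets. In the first cohort these were Pvalb in UIRI+Nx d7 replicate 1, the highest of its group at 0.773 CPM, and Wnk1 in UIRI d7 replicate 4, the highest at 755 CPM. In the second cohort S100g in UIRI+Nx d7 replicate 4 was the highest at 1047 CPM, Trpv5 in UIRI+Nx d7 replicate 1 the highest at 18.9 CPM and Calb1 in UIRI d7 replicate 6 the highest at 31.6 CPM. UIRI d3 replicate 4 of that cohort held both the highest Slc8a1 of its group, at 2.11 CPM, and the lowest Atp2b1, at 223 CPM.

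The column titled UNDETERMINED, which the labels put in no group, had 246 CPM of Atp2b1 by library size (Wilson interval 237 to 254, counting error only), set beside 162 to 219 CPM with TMM factors in the 6 Control libraries. The scales differ, and no group is read from it. Control belongs to the first cohort, while the processing notes name for this column the build of the second.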

How the results depend on the processing

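Among the recomputed fold changes of the 10 genes, leaving aside the fits without a library, 24 of those with a p given lost and 4 gained a call, and 0 that were called changed direction. Values that were not called and lay near 0 did change sign, also without a library, such as Trpv5 in UIRI d3 against Control (-0.24 to 0.05) and Slc12a3 in UIRI+Nx d7 against UIRI d3 of the second cohort (-0.20 to 0.34). On library size alone, calls higher and lower were 4295 and 1316 (main scaling 2709 and 2200) in UIRI+Nx d7, 5740 and 1589 (3371 and 2847) in UIRI d7 and 4370 and 1344 (2793 and 2339) in UIRI d3, each against Control. For UIRI+Nx d7 against UIRI d7 they were 334 and 783 (497 and 543) and, in the second cohort, 271 and 596 (401 and 413). For UIRI d7 against UIRI d3 of the first they were 274 and 141 (195 and 214), and for UIRI+Nx d7 against UIRI d3 of the second 360 and 599 (462 and 473).

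Counts of called genes that moved by over 1.5 times follow, with the 10 genes and then the 43, and the main count in brackets. With adjusted p under 0.01, UIRI+Nx d7 against UIRI d7 gave 5 (9) pathway genes, UIRI d7 against UIRI d3 0 (1) of the 10 and UIRI+Nx d7 against UIRI d3 5 (11) pathway genes in the first cohort. The second gave 2 (4) and 3 (8), 0 (1) of the 10, and 2 (4) and 6 (10). With a log2 fold change of at least 1, UIRI d7 against Control gave 18 (28) pathway genes, UIRI+Nx d7 against Control 4 (7) and 12 (21), and UIRI+Nx d7 against UIRI d3 6 (11) pathway genes. The second cohort gave 3 (8) pathway genes for UIRI+Nx d7 against UIRI d7, 0 (1) and 1 (4) for UIRI d7 against UIRI d3 and 4 (10) pathway genes for UIRI+Nx d7 against UIRI d3. Fewer libraries within block 1a gave 15 (27) pathway genes for UIRI d3 against Control, 13 (21) for UIRI+Nx d7 against Control, 3 (9) for UIRI+Nx d7 against UIRI d7, 0 (1) and 0 (1) for UIRI d7 against UIRI d3 and 1 (3) and 1 (11) for UIRI+Nx d7 against UIRI d3. Block 2b gave 17 (27) pathway genes for UIRI d3 against Control, 4 (7) and 9 (21) for UIRI+Nx d7 against Control and 1 (3) and 0 (11) for UIRI+Nx d7 against UIRI d3. Block 2a gave 2 (8) pathway genes for UIRI+Nx d7 against UIRI d7, 0 (1) and 1 (4) for UIRI d7 against UIRI d3 and 5 (10) pathway genes for UIRI+Nx d7 against UIRI d3, and block 2c 1 (4) and 0 (8) for UIRI+Nx d7 against UIRI d7. For UIRI d7 against UIRI d3 of the first cohort, library size alone, the library block as a covariate and the 2 groups alone each left 0 (1) of the 10. For the second, no low-count filter left 0 (1), the library block 0 (1) and 2 (4), and DESeq2 and the 2 groups alone 2 (1). The cause of these shifts was not tested.

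Leaving out each library in turn gave, of the 10 genes, 7 to 8 in UIRI+Nx d7, 8 to 9 in UIRI d7 and 7 to 9 in UIRI d3 against Control, 3 for UIRI+Nx d7 against UIRI d7, 0 to 1 for UIRI d7 against UIRI d3 and 2 to 4 for UIRI+Nx d7 against UIRI d3. Pathway genes came to 18 to 22, 26 to 29, 26 to 29, 6 to 11, 1 to 2 and 6 to 12. The second cohort gave 2 to 4, 0 to 1 and 2 to 5 of the 10, and 4 to 9, 3 to 5 and 7 to 12 pathway genes, for its 3 comparisons in that order.

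Replicate numbers did not pair the samples, since the deviations of same-numbered libraries correlated between -0.48 and 0.518 over 50 pairs. With the replicate number as a block, UIRI+Nx d7 against UIRI d7 gave 3 of the 10 genes for the first and 4 for the second cohort, and 9 and 9 pathway genes. UIRI+Nx d7 against UIRI d3 of the first cohort gave 4 (3) of the 10 genes. The counts of the 10 genes in the other comparisons did not change. Over all genes, the calls of UIRI+Nx d7 against UIRI d7 numbered 963 (1040) and 796 (814). In the second cohort the block ended the call of Slc8a1 for UIRI+Nx d7 against UIRI d3 (edgeR adjusted p = 0.073), made Wnk1 a call there (0.02), made calls of Sgk1 (1.09, 0.03), Atp1b1 (0.82, 0.0102) and Egf (-0.88, 0.0432) for UIRI+Nx d7 against UIRI d7 and ended that of Cyp27b1 for UIRI+Nx d7 against UIRI d7 (0.0746).

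Over all genes, counts moved by over 1.5 times with DESeq2 (711 against 409, UIRI d7 against UIRI d3), with the 2 groups alone (586 against 1040, UIRI+Nx d7 against UIRI d7), and with the library block in the second cohort (349 against 1330, UIRI d7 against UIRI d3). Within block 1a calls numbered 2933 (4909) for UIRI+Nx d7 and 2729 (5132) for UIRI d3 against Control, 131 (1040) for UIRI+Nx d7 against UIRI d7, 113 (805) for UIRI+Nx d7 against UIRI d3 and, by edgeR, 0 (409) for UIRI d7 against UIRI d3, with 1676 at an unadjusted p under 0.05 and 711 called by DESeq2 on all libraries. Block 2b gave 1709 (4909) and 2366 (5132) against Control and 37 (805) for UIRI+Nx d7 against UIRI d3. Block 2a gave 176 (814), 207 (1330) and 477 (935) for UIRI+Nx d7 against UIRI d7, UIRI d7 against UIRI d3 and UIRI+Nx d7 against UIRI d3, and block 2c 16 (814) for the first of these. Thin counts limit Pvalb, Slc8a1 and Trpv6.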

Other observations

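The column titled UNDETERMINED, a name usually given to reads assigned to no sample, held 158 CPM of Calb1, 746 CPM of Klk1, 535 CPM of S100g, 156 CPM of Slc12a3 and 5.87 CPM of Pvalb by library size. No group is read from these values.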
